A study of Mus musculus with 6 samples.

Results

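The chaperone genes described here are 44 genes of protein folding and protein quality control, taken by gene symbol from the 54532 genes of the deposited count table. They were divided by compartment into 6 small heat shock proteins, 16 other cytosolic heat shock genes, 15 genes of the endoplasmic reticulum (ER) and 7 genes of the mitochondrial matrix. All 44 symbols matched 1 row each, and all 44 had enough counts to be tested.

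Left ventricular RNA was sequenced from 3 mice of the TG group and 3 of the NTG group, with 1 poly-A selected library per heart, 4 weeks after aortic banding (AB), which narrows the aorta and loads the heart with pressure. TG mice have the genotype HINT2CTG-Myh6Cre, made by crossing CAG-HINT2 mice with mice that express Cre from the cardiomyocyte promoter Myh6 and giving tamoxifen at 5 mg/kg per day for 7 days, and NTG mice are C57BL/6J. The mice were male and 8 to 10 weeks old at surgery, and no unbanded heart was sequenced. Whether NTG mice received tamoxifen or carried Cre is not given in the sources used here, so HINT2, Cre and tamoxifen cannot be told apart.

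Chaperones bind unfolded or partly folded proteins and let them fold, and several hand their clients over to proteases. In the cytosol the HSP70 and HSP90 families work with J-domain partners, and many of their genes are switched on by the heat shock factor Hsf1 when unfolded proteins accumulate. The ER has its own HSP70 and HSP90 and is governed by the unfolded protein response, while the mitochondrial matrix uses a separate HSP70, the HSP60/HSP10 chamber and the Lon and Clp proteases. Small heat shock proteins are abundant in muscle, where they protect the contractile apparatus.

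Total counts on genes ran from 14863568 to 17581220 in NTG and from 14944465 to 17235802 in TG, and the 44 chaperone genes took 1.41% to 1.66% of them in NTG and 1.48% to 1.78% in TG. The targeted gene, Hint2, read 0.819, 28.9 and 32.3 CPM (counts scaled to a common library total after TMM correction) in NTG 1, NTG 2 and NTG 3, and 57.2, 47.1 and 53.0 CPM in TG 1, TG 2 and TG 3. The groups did not overlap (p = 0.1 by a two-sided exact permutation test, which can go no lower with 3 hearts a group). The low value of NTG 1 does not match its label, although the label was retained, and on the first principal component of all genes tested NTG 1 lay at −5.08, next to TG 2 at −10.7 and away from NTG 2 at 55.7 and NTG 3 at 29.3. Calls are therefore given with and without it.

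The summed levels of fibroblast, red cell and smooth muscle markers separated the groups, while those of cardiomyocyte, macrophage and endothelial markers overlapped. In bulk tissue, fewer cells of a type and less RNA per cell cannot be told apart. All 8 cardiomyocyte markers were fitted higher in TG, with a summed level of 19710 to 32760 CPM in NTG and 31370 to 38740 CPM in TG. All 8 fibroblast markers were fitted lower, with sums of 4709 to 10850 CPM in NTG and 2317 to 4017 CPM in TG. The 7 macrophage markers were fitted lower as well (493 to 986 CPM against 406 to 560 CPM), as were the 5 red cell markers (1310 to 2245 CPM against 762 to 908 CPM). Of 6 endothelial markers 4 were fitted higher (1481 to 1706 CPM against 1582 to 1736 CPM), and of 5 smooth muscle markers 4 were fitted higher (202 to 259 CPM against 314 to 361 CPM).

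Promoter sequences are shown because the libraries in which the chaperone genes were high or low differed by compartment and because heat shock genes and ER chaperone genes are each known for a promoter element. RefSeq windows on GRCm38.p6, from 250 bases before to 50 bases after each annotated start, were found for 36 of the 44 genes, the others being Hspb2, Hspa8, Hsp90aa1, Hsp90ab1, Hsf1, Hyou1, Manf and Hspa9. The ER stress element was searched as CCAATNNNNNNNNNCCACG on both strands. It was present in 6 of the 13 ER genes with a window and in 0 of the 5 small heat shock, 12 cytosolic and 6 mitochondrial genes with a window, against 0.137% of all 27025 genes with a window. The 7 matches are given in the direction of the element, with its fixed ends in capitals and the bases between them in lower case.
Hspa5, chr2:34772025-34772043, bases 65 to 47 before the start: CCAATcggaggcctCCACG
Calr, chr8:84847075-84847093, bases 162 to 144 before the start, opposite strand: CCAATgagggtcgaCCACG
Hsp90b1, chr10:86705638-86705656, bases 212 to 194 before the start: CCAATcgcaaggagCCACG
Hsp90b1, chr10:86705533-86705551, bases 107 to 89 before the start, opposite strand: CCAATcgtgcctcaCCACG
Canx, chr11:50325800-50325818, bases 145 to 127 before the start: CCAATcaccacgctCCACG
Pdia6, chr12:17266491-17266509, bases 98 to 80 before the start: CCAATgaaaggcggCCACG
Creld2, chr15:88819520-88819538, bases 126 to 108 before the start, opposite strand: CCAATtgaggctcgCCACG

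Canx is shown with its surroundings because it is the most abundant per length of the genes with the element whose annotated exons do not reach into the bases before the start. These 250 bases, on the minus strand at chr11:50325674-50325923, carry the element in capitals.
Canx: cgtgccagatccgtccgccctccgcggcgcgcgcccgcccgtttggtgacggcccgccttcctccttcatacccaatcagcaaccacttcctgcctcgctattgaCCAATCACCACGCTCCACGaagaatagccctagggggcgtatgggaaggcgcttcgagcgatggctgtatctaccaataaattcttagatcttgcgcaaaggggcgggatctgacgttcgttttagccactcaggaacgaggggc

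A heat shock element of 3 alternating units was searched as GAANNTTCNNGAA or its reverse complement TTCNNGAANNTTC. It was present in 3 of the 36 genes with a window, namely Hsph1, Hspd1 and Hspe1, against 0.662% of all genes with a window. Hsph1 holds it after its start, as TTCTGGAAAGTTC. Hspd1 and Hspe1 lie head to head on chromosome 1, and the same stretch of DNA gave the matches of both genes. Read along Hspe1, 2 overlapping matches form 1 run on the plus strand at chr1:55088059-55088076, from base 89 to base 72 before its start, shown in capitals as a whole.
Hspe1 and Hspd1: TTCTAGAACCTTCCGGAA
A match is a run of letters in a window, and a window without one says nothing of Hsf1 or of the factors that bind the ER element.

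Across the 44 chaperone genes no member was called by edgeR's quasi-likelihood test or by DESeq2, where a call needed both an adjusted p below 0.05 and an absolute log2 fold change above 0.5. For edgeR the share of the 14774 genes tested that was called was 0% in each direction, and for DESeq2 it was 1.54% higher and 2.4% lower. The adjusted p of the members ran from 0.217 to 0.991 (edgeR). At an unadjusted p under 0.05, 5 members were higher in TG (Hspb3, Dnajb5, Dnajb9, Clpp and Clpx) and 0 were lower, against 8.83% and 9.76% of all genes tested, or 18.6% in either direction. That count of 5 was 15, 1, 1, 2, 3 and 1 when NTG 1, NTG 2, NTG 3, TG 1, TG 2 and TG 3 were left out in turn. Fitted values were higher in TG for 34 members and lower for 10, where 48.7% of all genes tested were fitted higher and 51.3% lower, and the median log2 fold change of the members was 0.16 against −0.0081 for all genes. The groups did not overlap for 4 members that were higher in TG and 1 that was lower, against 11.2% and 12.3% of all genes.

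**Figure D1:**
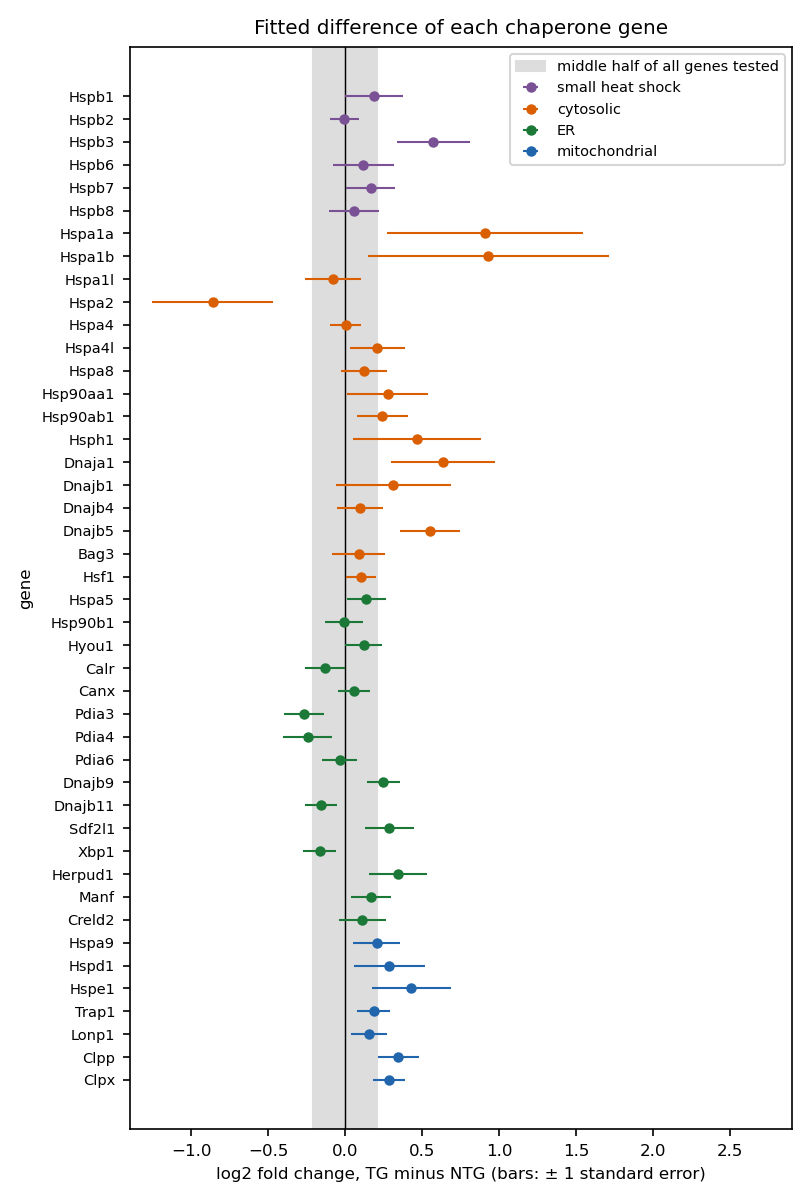
Log2 fold change of each of the 44 chaperone genes (TG minus NTG, x axis) with bars of 1 standard error from edgeR's fit, coloured by compartment, over a grey band from the lower to the upper quartile of all genes tested (−0.21 to 0.20). The mitochondrial genes lie to the right of 0 (0.15 to 0.43), the ER genes on either side of it (−0.27 to 0.34), and Hspa1a and Hspa1b have wide bars.

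The library labelled NTG 1 decided how many members were called. Without it, edgeR called 4 members higher, Hspb3, Dnajb5, Hspd1 and Hspe1, and 0 lower, against 2.67% and 2.85% of the 15136 genes tested. DESeq2 without it called 9 higher and 1 lower, against 5.92% and 5.79% of all genes. The additional ones were Hspa1a, Hspa1b, Hsp90aa1, Hsph1 and Dnaja1, which were higher, and Hspa2, which was lower. With any other single library left out, neither tool called a member. At an unadjusted p under 0.05 (edgeR), 15 members were higher and 2 lower without NTG 1, against 13.7% and 13.3% of all genes.

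**Figure D2:**
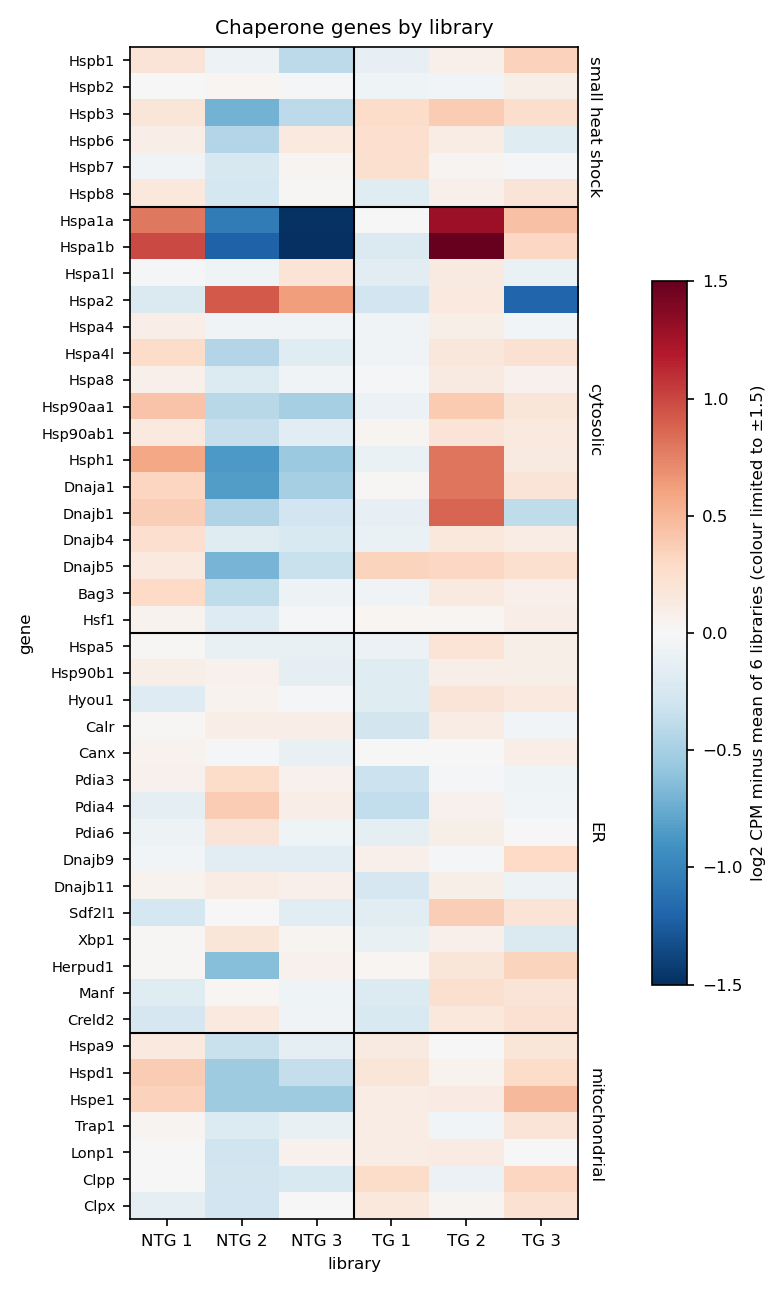
Log2 CPM of each chaperone gene (rows, by compartment) in each library (columns), minus the mean of the 6 libraries, in red where higher and blue where lower, with colours limited to 1.5. In the rows of Hspa1a, Hspa1b, Hsph1 and Dnaja1, NTG 1 and TG 2 are red and NTG 2 and NTG 3 are blue, Hspa2 has the opposite colours in NTG, and the ER block is pale but for Herpud1 in NTG 2.

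The small heat shock proteins were the most abundant group per gene length. A further one, Cryab, was listed with the other cytosolic folding genes and had 1176 CPM per kilobase and a log2 fold change of −0.12. Among the 6 members Hspb7, of heart and skeletal muscle, had 1047 CPM per kilobase over the 6 libraries and 40.2% of their level per length. Hspb1 (HSP27) followed at 650 CPM per kilobase, Hspb6 (HSP20) at 520 and Hspb8, the partner of Bag3 in chaperone-assisted autophagy, at 342, while Hspb2 and Hspb3, which form a complex in muscle, were at 34.5 and 8.87. The median log2 fold change of the 6 genes was 0.14 (0.048 without NTG 2), with 1 gene higher at an unadjusted p under 0.05, against 8.83% of all genes tested.

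Hspb3, the scarcest of the group (ENSMUSG00000051456, chromosome 13, 113662896 to 113663676, minus strand), read 7.58, 4.09 and 5.09 CPM in NTG 1, NTG 2 and NTG 3, and 8.08, 8.70 and 8.03 CPM in TG 1, TG 2 and TG 3. All TG libraries exceeded all NTG libraries, and NTG 1 came close to the TG hearts. The log2 fold change was 0.57 ± 0.24 (SE). Its edgeR unadjusted p was 0.0414, and its adjusted p of 0.251 did not pass the adjustment over all genes tested. The log2 fold change was 0.85 without NTG 1 (adjusted p = 0.0493, edgeR) and 0.39 without NTG 2.

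Hspb7 read 2786, 2441 and 2974 CPM in the NTG libraries and 3412, 2956 and 2825 CPM in the TG libraries, with a log2 fold change of 0.16 ± 0.16 (SE, with an edgeR adjusted p of 0.597), between 0.078 without TG 1 and 0.23 without NTG 3. Hspb1 read 753, 627 and 502 CPM in NTG and 605, 697 and 837 CPM in TG, at 0.18 ± 0.19 (SE, with an edgeR adjusted p of 0.616), or 0.33 without NTG 1 and 0.046 without NTG 3. In both genes the groups overlapped. Hspb2 was the steadiest chaperone gene, with 28.4 to 29.5 CPM in NTG and 27.6 to 30.6 CPM in TG, a ratio of 1.11 between its highest and lowest library. It overlaps Cryab on the opposite strand over 1030 bases, so their reads cannot be told apart without strand. Of the 100-base windows of the longest Hspb1 transcript, 42.7% occur unchanged in transcripts of other genes.

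The cytosolic heat shock genes had a median log2 fold change of 0.23, with 14 of 16 fitted higher (a median of 0.41 without NTG 1, 0.097 without NTG 2, 0.14 without NTG 3 and 0.13 without TG 2), 1 higher at an unadjusted p under 0.05 and 0 lower, against 48.7% of all genes tested fitted higher, 8.83% higher and 9.76% lower. Per length the group was led by the constitutive members Hsp90ab1, at 654 CPM per kilobase, and Hspa8 (HSC70), at 475, which held 40.2% and 29.2% of it. The co-chaperone Bag3, which links HSP70 to autophagy in muscle, stood at 133 and the inducible HSP90 gene Hsp90aa1 at 107. Hsf1, the factor that switches on the heat shock genes, was at 5.31.

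The spread among hearts was widest in Hspa1b and Hspa1a, and it did not follow the groups. Hspa1b and Hspa1a encode the stress-inducible HSP70, lie side by side on chromosome 17 (34956436 to 34959238 and 34969190 to 34972156, minus strand) and share 49.9% and 48.6% of their 100-base windows with each other or with Hspa1l, so their separate values are uncertain. Their summed level was 386, 92.6 and 72.1 CPM in NTG 1, NTG 2 and NTG 3, and 187, 588 and 263 CPM in TG 1, TG 2 and TG 3. The highest library, TG 2, was 8.16 times the lowest, NTG 3, and NTG 1 was above TG 1 and TG 3. Hspa1b alone read 114 ± 114 CPM (SD, n = 3) in NTG and 217 ± 153 CPM (SD, n = 3) in TG, a log2 fold change of 0.93 ± 0.78 (SE, with an edgeR adjusted p of 0.544). Without NTG 1 it was 2.16 (adjusted p = 0.153, edgeR), and without TG 2 it was 0.19. Hspa1a had a log2 fold change of 0.90 ± 0.64 (SE, with an edgeR adjusted p of 0.467), 1.92 without NTG 1 and 0.47 without TG 2.

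**Figure D3:**
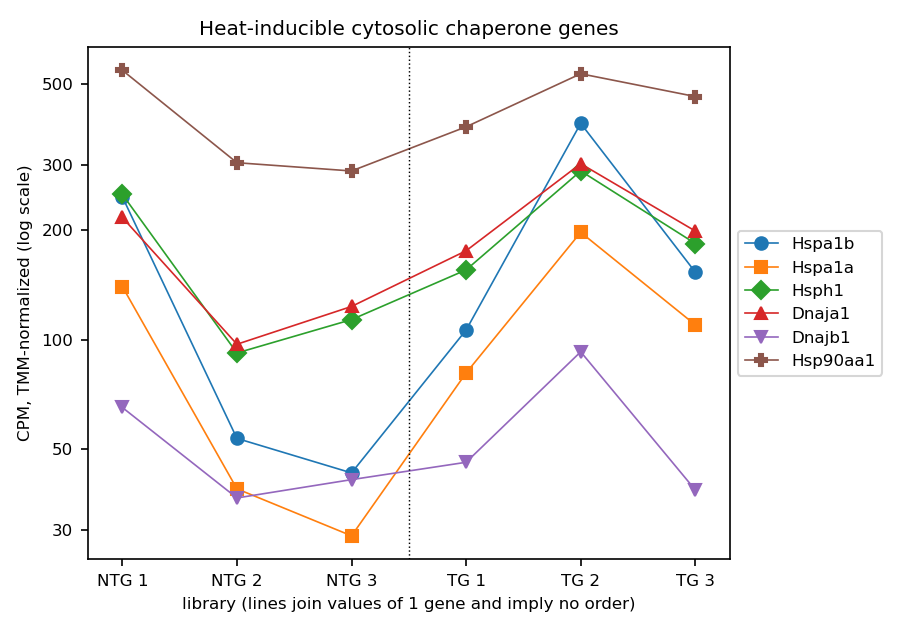
CPM on a log axis of 6 heat-inducible cytosolic chaperone genes in each library, with lines joining the values of 1 gene. The 6 genes peak in NTG 1 and TG 2, and Hspa1b spans 43.1 CPM in NTG 3 to 391 CPM in TG 2.

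Their partners shared the highest pair of libraries, though not the order of the rest. Hsph1 (HSP110), the exchange factor of HSP70, read 250, 91.9 and 113 CPM in NTG and 155, 290 and 183 CPM in TG. Dnaja1, a J-domain partner of HSP70, read 216, 97.1 and 123 CPM in NTG and 175, 303 and 198 CPM in TG. Dnajb1 (HSP40) read 65.1, 36.8 and 41.3 CPM in NTG and 46.1, 92.5 and 38.7 CPM in TG. Hsp90aa1 read 547, 305 and 290 CPM in NTG and 383, 535 and 463 CPM in TG. In each of the 4 genes NTG 1 and TG 2 were the highest libraries, and the groups overlapped.

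NTG 1 and TG 2 were the highest pair of libraries for 10 of the 16 cytosolic genes (Hspa1a, Hspa1b, Hspa4, Hspa8, Hsp90aa1, Hsph1, Dnaja1, Dnajb1, Dnajb4 and Bag3), against 4.09% of all genes tested. This order was noticed after the values had been seen. It held for 0 of the 6 small heat shock, 0 of the 15 ER and 0 of the 7 mitochondrial genes, and for 9 of 34 other cytosolic folding genes (26.5%). NTG 2 and NTG 3 were the lowest pair for 12 of the 16 and also for 5 of the 7 mitochondrial members, 17 of the 34 other cytosolic and 9 of the 16 other mitochondrial folding genes, against 19.3% of all genes. The libraries NTG 1 and TG 2 had total counts of 14863568 and 17235802 and took 19.2% and 15.9% of them from the mitochondrial genome. That share was 13.44% in NTG 2, 14.27% in NTG 3, 21.45% in TG 1 and 20.33% in TG 3. The part of handling or RNA quality in this order was not tested.

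Dnajb5, a J-domain partner of HSP70 found in heart, had the smallest unadjusted p of the cytosolic group and did separate the groups (ENSMUSG00000036052, chromosome 4, 42949814 to 42959425, plus strand). It read 108, 60.5 and 77.8 CPM in NTG 1, NTG 2 and NTG 3, and 124, 121 and 116 CPM in TG 1, TG 2 and TG 3. The TG libraries lay close together, each of them above the NTG libraries. The log2 fold change was 0.55 ± 0.19 (SE, with an edgeR adjusted p of 0.217), and it was 0.80 without NTG 1 (adjusted p = 0.0212, edgeR) and 0.37 without NTG 2.

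Hspa2, an HSP70 gene best known from the testis, pointed the other way at a low level. It read 8.40, 18.4 and 15.04 CPM in NTG and 8.01, 10.8 and 4.26 CPM in TG, a log2 fold change of −0.86 ± 0.39 (SE, with an edgeR adjusted p of 0.294), or −1.12 without NTG 1 and −0.57 without TG 3. NTG 2 and NTG 3 were above the other libraries and NTG 1 lay among the TG libraries. Dnaja1 had a log2 fold change of 0.63 ± 0.33 (SE, with an edgeR adjusted p of 0.346), which was 1.03 without NTG 1 and 0.36 without TG 2.

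The abundant constitutive genes Hspa8 and Hsp90ab1 differed by ratios of 1.27 and 1.46 between their highest and lowest libraries, where the median over all genes tested was 1.55. Hspa8 read 2147, 1762 and 1965 CPM in NTG and 2008, 2246 and 2134 CPM in TG, and Hsp90ab1 read 2142, 1524 and 1722 CPM in NTG and 1998, 2221 and 2151 CPM in TG. Their log2 fold changes were 0.12 ± 0.15 (SE) and 0.24 ± 0.17 (SE), or 0.19 and 0.39 without NTG 1 and 0.049 and 0.14 without NTG 2. Hspa4, an HSP110 relative, was at 0.0027 ± 0.10 (SE), on either side of 0 with single libraries left out (−0.043 to 0.053), with 220.2 to 245 CPM in NTG and 221 to 244 CPM in TG. Bag3 was at 0.086 ± 0.17 (SE), 0.28 without NTG 1 and −0.063 without NTG 2, and ran from 259 to 414 CPM in NTG and from 325 to 374 CPM in TG. Hsf1 itself ran from 32.8 to 39.2 CPM in NTG and from 38.4 to 40.2 CPM in TG, with a log2 fold change of 0.10 ± 0.098 (SE), or 0.16 without NTG 1 and 0.035 without NTG 2. Exact 100-base windows shared with other genes made up 62.8% of the longest Hspa8 transcript, 47.5% of that of Hsp90aa1 and 14.8% of that of Dnaja1.

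Other genes of the cytosolic folding machinery, a list of 34 with co-chaperones, subunits of the TRiC chamber, the small heat shock protein Cryab, Hsf2 and further HSP70 relatives, had a median log2 fold change of 0.10, with 5 higher and 1 lower at an unadjusted p under 0.05, where 8.83% and 9.76% of all genes tested were. The smallest unadjusted p belonged to Stub1 (CHIP, the ubiquitin ligase that works with HSP70), Hspbp1 and Bag1 (exchange factors of HSP70), with log2 fold changes of 0.36, 0.45 and 0.29 (unadjusted p = 0.0067, 0.0108 and 0.0282, edgeR). In the whole list the groups did not overlap for 7 genes that were higher in TG, these 3 among them, and for 1 that was lower. Of all genes tested 11.2% and 12.3% separated the groups in this way. With all libraries no gene of this list passed the adjustment over all genes tested. Without NTG 1, edgeR called 4 higher, against 2.67% of all genes: Fkbp4, an HSP90 co-chaperone (log2 fold change 1.11, or 0.69 with all libraries), Unc45b, a myosin chaperone (0.78), Stip1, which joins HSP70 to HSP90 (0.63), and Ahsa1, an activator of HSP90 (0.50). DESeq2 without NTG 1 called these 4 with Chordc1 and Smyd1 higher and Fkbp5 lower, against 5.92% and 5.79% of all genes.

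The ER chaperone genes had a median log2 fold change of 0.058, with 8 of 15 fitted higher and 7 lower, 1 higher at an unadjusted p under 0.05 and 0 lower. Of all genes tested 48.7% were fitted higher and 51.3% lower, and 8.83% and 9.76% passed that p. The median was 0.033 without NTG 1, 0.016 without NTG 3 and 0.02 without TG 3. Scaled by library size alone, it was −0.025, while that of all genes tested was −0.093. The summed level of the 15 genes was 2671 to 2793 CPM in NTG and 2452 to 2940 CPM in TG, so the TG libraries lay on either side of NTG. Per length, Hspa5 (BiP, the ER HSP70) led at 158 CPM per kilobase, followed by the calcium-binding lectin chaperone Calr at 144, the disulfide isomerase Pdia3 at 93.6, Hsp90b1 (GRP94) at 70.9 and the lectin Canx at 62.0.

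Hspa5 read 673, 614 and 617 CPM in NTG and 624, 764 and 706 CPM in TG, with a log2 fold change of 0.14 ± 0.13 (SE, with an edgeR adjusted p of 0.581), between 0.068 without TG 2 and 0.21 without TG 1. Hsp90b1 read 303, 297 and 259 CPM in NTG and 250.4, 302 and 303 CPM in TG, with a log2 fold change of −0.0066 ± 0.12 (SE), which ran from −0.075 to 0.076 with single libraries left out. The groups overlapped in both. Over the 6 genes with the ER stress element shown above, log2 fold changes ran from −0.13 for Calr to 0.14 for Hspa5, and none had an unadjusted p under 0.05 (edgeR).

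Dnajb9 (ERdj4), a J-domain partner of BiP that is induced by ER stress (ENSMUSG00000014905, chromosome 12, 44205559 to 44210326, minus strand), read 50.9, 46.5 and 46.7 CPM in NTG and 55.0, 51.5 and 64.3 CPM in TG. The groups did not overlap, though TG 2 exceeded NTG 1 by less than 1 CPM. The log2 fold change was 0.25 ± 0.11 (SE, with an edgeR adjusted p of 0.265), or 0.15 without TG 3. Pdia3 (ERp57), which forms disulfide bonds in glycoproteins, was the 1 member below NTG in every TG library, at 305, 354 and 304 CPM in NTG and 232, 288 and 279 CPM in TG, a log2 fold change of −0.27 ± 0.13 (SE, with an edgeR adjusted p of 0.299), between −0.33 and −0.18 with each library left out in turn. Herpud1, which serves ER-associated degradation, read 133, 84.5 and 138 CPM in NTG and 134, 149.6 and 166 CPM in TG, at 0.34 ± 0.19 (SE, with an edgeR adjusted p of 0.356), and at 0.15 without NTG 2.

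The remaining ER members lay between −0.24 for Pdia4 and 0.29 for Sdf2l1 on the log2 fold change scale. Xbp1, the transcription factor of the unfolded protein response, was at −0.17 ± 0.11 (SE), between −0.25 without TG 2 and −0.10 without TG 3, with 126 to 141 CPM in NTG and 107 to 131 CPM in TG. Its splice form was not read from gene counts. Across the 15 genes the median ratio of highest to lowest library was 1.32, against 1.76 for the cytosolic group and 1.55 for all genes tested.

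Other ER folding and degradation genes lay lower. Of 21 tested, 18 were fitted lower in TG, with a median log2 fold change of −0.20, and 8 were lower and 0 higher at an unadjusted p under 0.05. Of all genes tested 51.3% were fitted lower, and 9.76% were lower and 8.83% higher at that p. Ero1l, the oxidase that recharges disulfide isomerases, read 30.5, 50.8 and 25.7 CPM in NTG and 21.3, 21.3 and 20.1 CPM in TG, a log2 fold change of −0.77 ± 0.24 (SE, with an edgeR unadjusted p of 0.0139), or −0.43 without NTG 2. Txndc5, a disulfide isomerase of fibroblasts and endothelial cells, was at −0.45 (unadjusted p = 0.0179, edgeR) and Ppib, a prolyl isomerase that acts on procollagen, at −0.29 (unadjusted p = 0.0256, edgeR), which were −0.35 and −0.20 without NTG 2. With all libraries no gene of this list passed the adjustment over all genes tested. DESeq2 called Ero1l, Pdia5, Txndc5 and Serp1 lower without NTG 1 (against 5.79% of all genes). It called Ero1l lower without NTG 3 (against 129 of 15127 genes) and Txndc5 lower without TG 2 (against 486 of 15062 genes). No gene of this list was called by edgeR in these fits. The 9 genes of the 3 lists of other folding genes (cytosolic, ER and mitochondrial) that were lower at an unadjusted p under 0.05 became 4, 4, 2 and 2 without NTG 2, NTG 3, TG 1 and TG 3. The 8 fibroblast markers were fitted lower in the same libraries, with a median log2 fold change of −0.88, and their part in the lower ER values was not tested.

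**Figure D4:**
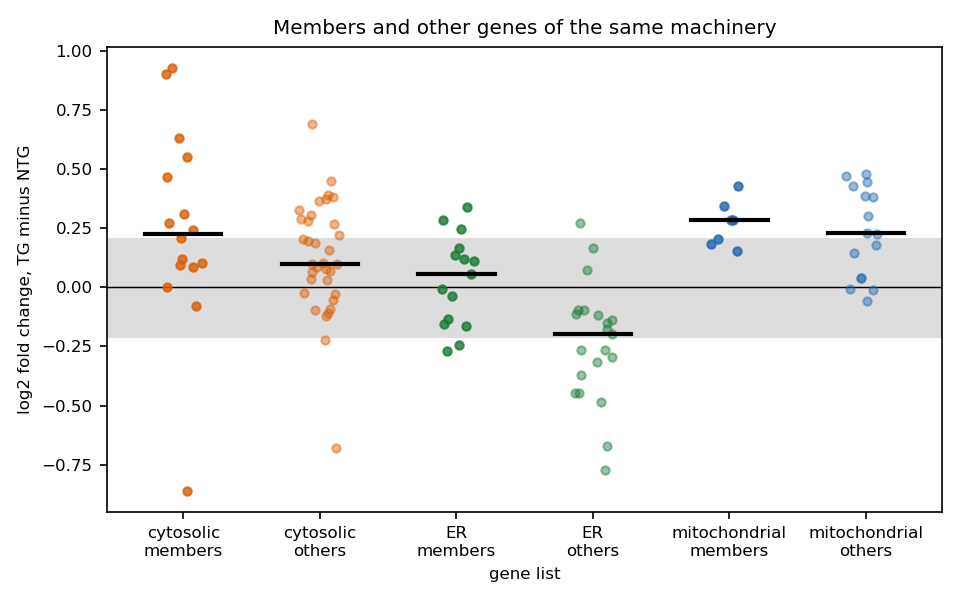
Log2 fold change (TG minus NTG, y axis) of the chaperone genes and of the other tested genes of the same machinery by compartment. Each point is 1 gene, black lines are medians and the grey band runs from the lower to the upper quartile of all genes tested (−0.21 to 0.20). The medians are 0.23 and 0.10 in the cytosol, 0.058 and −0.20 in the ER, and 0.28 and 0.23 in mitochondria.

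The mitochondrial chaperones and proteases were all fitted higher in TG, 7 of 7, with a median log2 fold change of 0.28 in a range of 0.15 to 0.43, and Clpp and Clpx had an unadjusted p under 0.05, where 48.7% of all genes tested were fitted higher and 8.83% were higher at that p. Their summed level was 1603, 1094 and 1253 CPM in NTG 1, NTG 2 and NTG 3, and 1568, 1453 and 1646 CPM in TG 1, TG 2 and TG 3. NTG 1 stood among the TG libraries and NTG 2 was lowest. The median was 0.34 without NTG 1 and 0.13 without NTG 2. The cardiomyocyte markers, with a median log2 fold change of 0.43, were lowest in NTG 2 too, and their part in these values was not tested.

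Clpx and Clpp are the ATPase and the peptidase of the ClpXP protease of the matrix. Clpx (ENSMUSG00000015357, chromosome 9, 65294260 to 65330658, plus strand) read 69.0, 62.5 and 75.7 CPM in NTG and 84.7, 78.2 and 89.3 CPM in TG, with no overlap. Its log2 fold change was 0.28 ± 0.10 (SE, with an edgeR adjusted p of 0.220), and it lay between 0.21 and 0.35 when each library was left out in turn. Clpp (ENSMUSG00000002660, chromosome 17, 56990305 to 56996188, plus strand) read 36.9, 30.4 and 31.4 CPM in NTG and 44.5, 34.7 and 46.2 CPM in TG, where TG 2 lay below NTG 1. Its log2 fold change was 0.35 ± 0.14 (SE, with an edgeR adjusted p of 0.232), between 0.27 and 0.46 with each library left out in turn.

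Hspd1 (HSP60) and Hspe1 (HSP10) form the folding chamber of the matrix and share the run of heat shock element matches shown above. Hspd1 read 415, 220.3 and 248 CPM in NTG and 361, 330 and 386 CPM in TG. Hspe1 read 144, 78.4 and 77.9 CPM in NTG and 122, 123 and 158 CPM in TG. For both genes NTG 1 was above 2 or more TG libraries, while NTG 2 and NTG 3 lay below all TG libraries. Their log2 fold changes were 0.29 ± 0.23 (SE, with an edgeR adjusted p of 0.522) and 0.43 ± 0.26 (SE, with an edgeR adjusted p of 0.395). Without NTG 1 they were 0.62 (adjusted p = 0.0388, edgeR) and 0.78 (adjusted p = 0.0264, edgeR). Without NTG 2 they were 0.11 and 0.28, and without NTG 3 they were 0.18 and 0.28. The genes overlap over 112 bases, and 26.9% and 20.4% of their 100-base windows occur in transcripts of other genes.

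Hspa9 (mortalin), the HSP70 that pulls proteins into the matrix, led the group per length at 150 CPM per kilobase. It read 649, 463 and 533 CPM in NTG and 645, 587 and 663 CPM in TG, a log2 fold change of 0.20 ± 0.15 (SE, with an edgeR adjusted p of 0.482). Trap1, the mitochondrial HSP90, read 115, 97.4 and 104 CPM in NTG and 122, 109 and 128 CPM in TG, at 0.18 ± 0.11 (SE, with an edgeR adjusted p of 0.372). Lonp1, the Lon protease, read 174, 142 and 183 CPM in NTG and 189, 190.2 and 175 CPM in TG, at 0.15 ± 0.12 (SE). The groups overlapped in these 3 genes. Without NTG 1 the values were 0.34, 0.25 and 0.18, and without NTG 2 they were 0.095, 0.13 and 0.052.

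**Figure D5:**
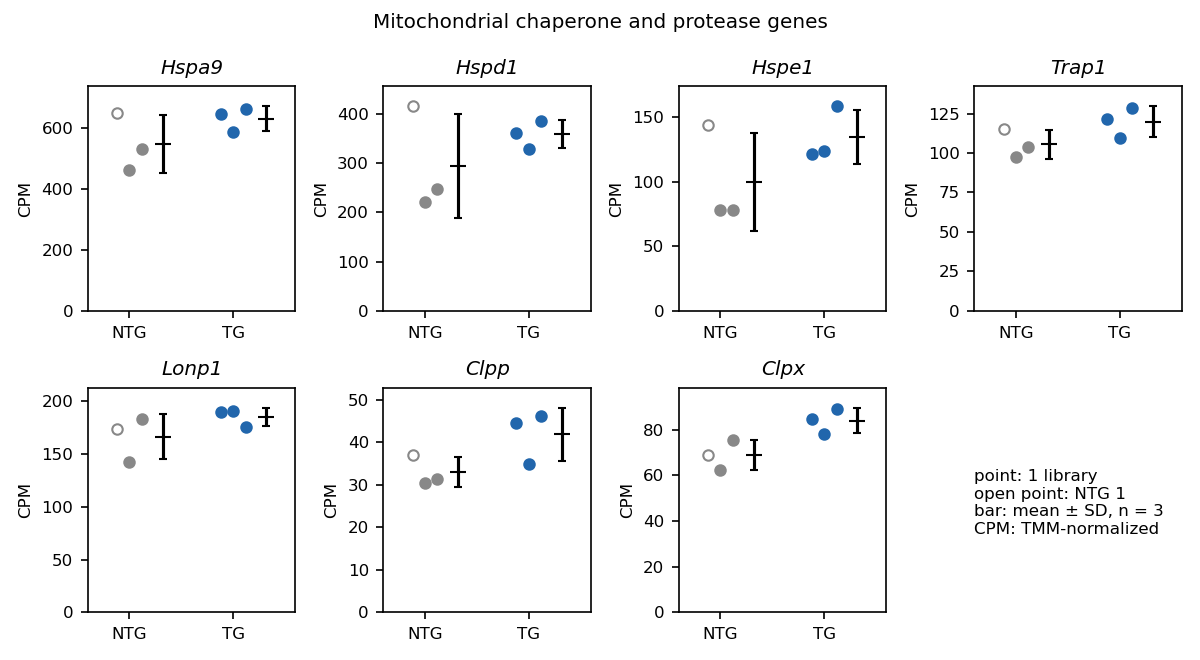
CPM of the 7 mitochondrial chaperone and protease genes in each library, with the mean and SD of each group (n = 3), an open circle for NTG 1 and axes from 0. In Hspd1 and Hspe1 the NTG 1 circle, at 415 and 144 CPM, lies with or above the TG points, whereas in Clpx all NTG points lie below the TG points.

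Other mitochondrial folding and quality control genes pointed the same way. Of 16 tested, 13 were fitted higher, with a median log2 fold change of 0.23, and 6 were higher and 0 lower at an unadjusted p under 0.05, against 8.83% and 9.76% of all genes tested. For 8 of the 16 the TG libraries were all above the NTG libraries, against 11.2% of all genes tested. The smallest unadjusted p belonged to Dnajc19, a J-domain protein of the import motor, Phb2, a prohibitin of the inner membrane, and Spg7, a subunit of an inner membrane protease. Their log2 fold changes were 0.48, 0.45 and 0.39 (unadjusted p = 0.0056, 0.0057 and 0.0118, edgeR), and with all libraries no gene of this list passed edgeR's adjustment over all genes tested. Phb2 had an adjusted p of 0.0408 from DESeq2 with a log2 fold change under 0.5. Without NTG 1 Phb2 was called higher by edgeR (0.54), against 2.67% of all genes. DESeq2 without NTG 1 called Phb2, Phb, Dnajc15 and Dnajc19 higher, against 5.92% of all genes. DESeq2 called the same 4 higher without TG 2, where it called 292 of 15062 genes higher and 486 lower (5.17% in either direction).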

How the data were processed

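Left ventricular RNA of 3 TG and 3 NTG mice was sequenced as poly-A selected libraries. The authors cleaned and mapped the reads, predicted transcripts with StringTie, counted reads per gene with featureCounts and deposited these raw counts with gene lengths, unnormalized and 1 column per heart. HISAT2, DESeq2 and GRCh38 are listed in the submitters' processing notes. The gene identifiers are those of mouse, and all 44 members had the start, end and strand of GENCODE mouse release M21 (GRCm38). Strand setting and treatment of multiply mapped reads are not given in the sources used here. All 6 columns were matched by title.

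The analysis of the counts used edgeR 4.0.16 under R 4.3.3 (TMM, filterByExpr by group, robust dispersions, quasi-likelihood test, two-sided, Benjamini-Hochberg adjustment over 14774 genes), without covariates. A call needed both an adjusted p below 0.05 and an absolute log2 fold change above 0.5, as in the study. CPM are scaled to the TMM-corrected total over tested genes, and standard errors are the log2 fold change divided by the root of edgeR's F. Nothing says more of the replicates than that they are separate hearts. No pair of libraries agreed within sampling noise (chi-square per gene 15.9 or more). Alternatives were RLE and library size scaling, no low-count filter, DESeq2 1.42.0, limma 3.58.1 (voom), robust = FALSE, an adjusted p alone, a replicate block, and each library left out in turn with edgeR and DESeq2. Promoter windows came from RefSeq (GRCm38.p6). The edgeR fits with and without the block, DESeq2 and voom were tested on simulated data. P-values measure the spread between these 6 hearts only. Members and lists were chosen with earlier results of these data known. Named with values were members with an unadjusted p under 0.05 or, in each compartment, the 3 with the smallest, those called or highest per length, Hint2, and of each other list the 3 with the smallest unadjusted p. The heat-inducible genes, Hspd1, Hspe1, Lonp1, Hspb2, Hspa4, Hsf1, Xbp1 and the other folding genes called with a library left out were added after their values had been seen, and single markers are given only as sums.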

Additional observations from a re-analysis of the deposited data

How the results depend on the processing

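No member was called under RLE, library size scaling, no low-count filter, DESeq2, limma-voom, robust = FALSE, an adjusted p alone or the replicate block. Library size scaling left 1 member higher and 1 lower at an unadjusted p under 0.05, against 5 and 0, and put the ER median at −0.025 and that of all genes at −0.093. DESeq2 had 1 member lower and the replicate block 3 lower at that p. The replicate block rests on a shared number only, since deviations of same-numbered hearts correlated at 0.081, 0.17 and −0.25, and it called 84 genes higher and 147 lower over the whole table. Each library left out in turn, with edgeR and DESeq2, gave 0 to 9 members called higher and 0 to 1 lower, the calls all without NTG 1. At an unadjusted p under 0.05 it gave 1 to 15 members higher and 0 to 2 lower, and 3 to 17 other folding genes higher and 1 to 12 lower (with edgeR 17, 4 and 6 higher without NTG 1, TG 1 and TG 3, against 11). With a library left out, the Hint2 log2 fold change ran from 0.77 without NTG 1, where it was called, to 1.83 without NTG 3 (DESeq2), and limma-voom with all libraries gave 2.31. Of 2185 single-gene values under the alternatives, 2065 kept their direction and side of the threshold, 40 became called and 80 changed sign, in 23 genes that all had an unadjusted p of 0.05 or more. The causes were not tested. Counting error weighs most on Hspb3, Hspa1l and Hspa2.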
